A study of Homo sapiens with 9 samples.

Results

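The genes described here encode the proteins of the mitochondrial ribosome. They were taken as all array probes whose platform gene symbol starts with MRPL or MRPS followed by a digit, which gave 93 of the 35328 probes and 68 genes. There were 40 genes with large-subunit names (MRPL, 52 probes) and 28 with small-subunit names (MRPS, 41 probes). Of these, 91 probes of 67 genes had a measurable ratio and were tested, 40 MRPL and 27 MRPS genes. The probes left out were the dimmer of the MRPL27 probes and the only probe of MRPS16P2, a pseudogene. A further 11 probes that matched several symbols, an MRPL or MRPS symbol among them, were not counted as members. Each gene is represented by its brightest tested probe under this symbol rule unless another probe is named.

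Messenger RNA was measured on 9 spotted oligonucleotide arrays with Cy3 and Cy5 labelling in SKbr3 cells, an established HER2-amplified human breast cancer line. There were 3 groups, siRNA 1, siRNA 2 and siRNA 3 against TRMT12, each with 3 arrays that compared cells given the TRMT12 siRNA with cells given a control siRNA. On arrays 1 and 2 of each group the knockdown sample carried Cy5, and on array 3 the dyes were exchanged. The series text speaks of 1 control siRNA throughout, while the control in the sample labels takes the number of its TRMT12 siRNA, so the siRNAs may have been compared with shared control RNA. No label states that the arrays of an siRNA came from separate cultures. The p-values of a single siRNA, and of differences between siRNAs, therefore rest on the variation among hybridisations alone, and this may be technical. In a ratio of bulk RNA, fewer cells of a type and less RNA per cell cannot be told apart.

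TRMT12 encodes an enzyme of wybutosine synthesis in phenylalanine transfer RNA, and its log2 ratio of knockdown over control lay between -2.73 and -2.35 on the 9 arrays. On every array the sample labelled as knockdown thus held less TRMT12. Since all 3 siRNAs target this gene, the ratio cannot show which siRNA an array carried. The median spot intensity above background was 175.6 to 418.45 in the knockdown channel and 130.7 to 514.8 in the control channel. All 8 SKbr3 markers on the array were detected. So were 5 of the 6 markers of other cells, which says little, since 30691 of the 35328 probes were detected. All 67 brightest probes of the mitochondrial ribosomal protein genes lay above background in both channels on every array and gave 9 ratios. Their median mean log2 intensity was 12.84, against 8.64 over the 28259 tested probes, and 65 of the 67 fell among the brighter 14130 probes. Shares of genes called are therefore set beside those of all tested probes and of these brighter probes.

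The mitochondrial ribosome translates the few proteins encoded by mitochondrial DNA, all of them subunits of the respiratory chain and ATP synthase. Its RNAs are mitochondrial transcripts, but its proteins are encoded in the nucleus, made in the cytosol and imported. The large subunit forms peptide bonds and feeds the new chain into the inner membrane, and the small subunit binds the messenger and reads its codons. Many of the proteins descend from bacterial ribosomal proteins, and the rest are found in mitochondria and not in bacteria.

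Promoter sequences are shown for 4 members to which the results below return. MRPS34, MRPL53 and MRPL44 were among the genes lower after knockdown, and MRPL38 was higher. Each is the RefSeq window of 250 bases before and 50 bases after the transcription start (GRCh38.p14), written 5′ to 3′ on the gene's strand. Capitals mark CCGGAAG, the core of sites for ETS-family factors, and AAGATGGCG, the core of YY1 sites, on either strand. CGCATGCG, the core of NRF1 sites, was searched too and stood in none of the 4.
MRPS34, chr16:1773085-1773384, minus strand: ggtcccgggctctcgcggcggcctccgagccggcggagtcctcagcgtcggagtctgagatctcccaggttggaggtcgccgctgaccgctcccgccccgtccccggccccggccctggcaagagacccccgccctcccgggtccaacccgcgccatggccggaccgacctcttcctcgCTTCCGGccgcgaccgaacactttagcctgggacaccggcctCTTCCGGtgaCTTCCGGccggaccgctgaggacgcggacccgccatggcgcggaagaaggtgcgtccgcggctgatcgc
MRPL53, chr2:74472631-74472930, minus strand: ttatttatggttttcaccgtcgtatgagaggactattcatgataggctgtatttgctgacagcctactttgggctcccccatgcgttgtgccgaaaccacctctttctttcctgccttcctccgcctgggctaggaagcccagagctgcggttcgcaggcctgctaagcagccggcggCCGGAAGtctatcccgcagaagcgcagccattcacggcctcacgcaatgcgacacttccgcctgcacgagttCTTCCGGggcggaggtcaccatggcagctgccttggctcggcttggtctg
MRPL44, chr2:223957213-223957512, plus strand: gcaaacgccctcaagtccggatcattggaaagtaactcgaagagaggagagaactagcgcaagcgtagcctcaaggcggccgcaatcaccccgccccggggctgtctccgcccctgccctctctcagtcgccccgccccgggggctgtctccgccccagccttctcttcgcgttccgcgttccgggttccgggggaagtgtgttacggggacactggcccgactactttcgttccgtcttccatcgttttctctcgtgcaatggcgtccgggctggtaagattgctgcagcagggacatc
MRPL38, chr17:75904835-75905134, minus strand: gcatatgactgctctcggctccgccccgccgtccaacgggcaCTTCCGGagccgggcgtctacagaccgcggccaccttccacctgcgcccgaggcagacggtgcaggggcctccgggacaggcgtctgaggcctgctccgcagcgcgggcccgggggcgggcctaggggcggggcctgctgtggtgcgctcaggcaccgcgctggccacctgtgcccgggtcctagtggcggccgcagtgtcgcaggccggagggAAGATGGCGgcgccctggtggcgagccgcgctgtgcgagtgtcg
The MRPS34 window held 3 copies of CCGGAAG, the MRPL53 window 2, the MRPL38 window 1 together with 1 copy of AAGATGGCG, and the MRPL44 window neither.

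The same letters were counted over all members. RefSeq windows were matched by symbol for 60 of the 68 genes, taking the listed start that comes before the others where there were several. There was none here for MRPL2, MRPL10, MRPL13, MRPL15, MRPL23, MRPL35, MRPS28 and MRPS16P2. CCGGAAG stood in 25 of the 60 windows (41.7%), in 13 of 34 MRPL and 12 of 26 MRPS windows, against 10.7% of all 27305 windows and 14.2% of the 15843 windows of protein-coding genes. AAGATGGCG stood in 11 windows (18.3%), against 1.85% of all and 2.74% of protein-coding windows. It was present in MRPL22, MRPL32, MRPL36, MRPL38, MRPL42, MRPL46, MRPS10, MRPS18A, MRPS18B, MRPS24 and MRPS30. The palindrome CGCATGCG of NRF1, a factor known for nuclear genes of mitochondrial proteins, stood in 3 windows (5.0%, against 2.19% of all and 2.88% of protein-coding windows). CCAAT, read by NF-Y, stood in 28.3% of members and 35.7% of all windows, and GGGCGG, read by SP1, in 61.7% and 44.6%, with 58.5% of protein-coding windows holding GGGCGG. All were searched on both strands, and a copy of CCGGAAG overlapped a copy of GGGCGG in 1 window, that of MRPL53. These are letter matches, not mapped binding sites.

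Across the 3 siRNAs most of the 67 genes lay slightly below 0, and MRPL38 stood furthest above it. The mean over siRNAs was below 0 for 47 genes, 70.1%, against 49.9% of all tested probes, and ranged from -0.35 for MRPL44 to 0.46 for MRPL38. Its median was -0.10 for the 40 MRPL genes and -0.08 for the 27 MRPS genes, against 0.00 over all tested probes. MRPL19, MRPL28, MRPL37, MRPL43, MRPL44 and MRPS11 were below 0 on all 9 arrays and MRPL38 was above 0 on all 9. Those 6 and 1 of 67 are shares of 8.96% and 1.49%, against 7.6% and 6.95% of the 24662 tested probes with 9 ratios, and 10.7% and 9.58% of the brighter ones.

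**Figure D1:**
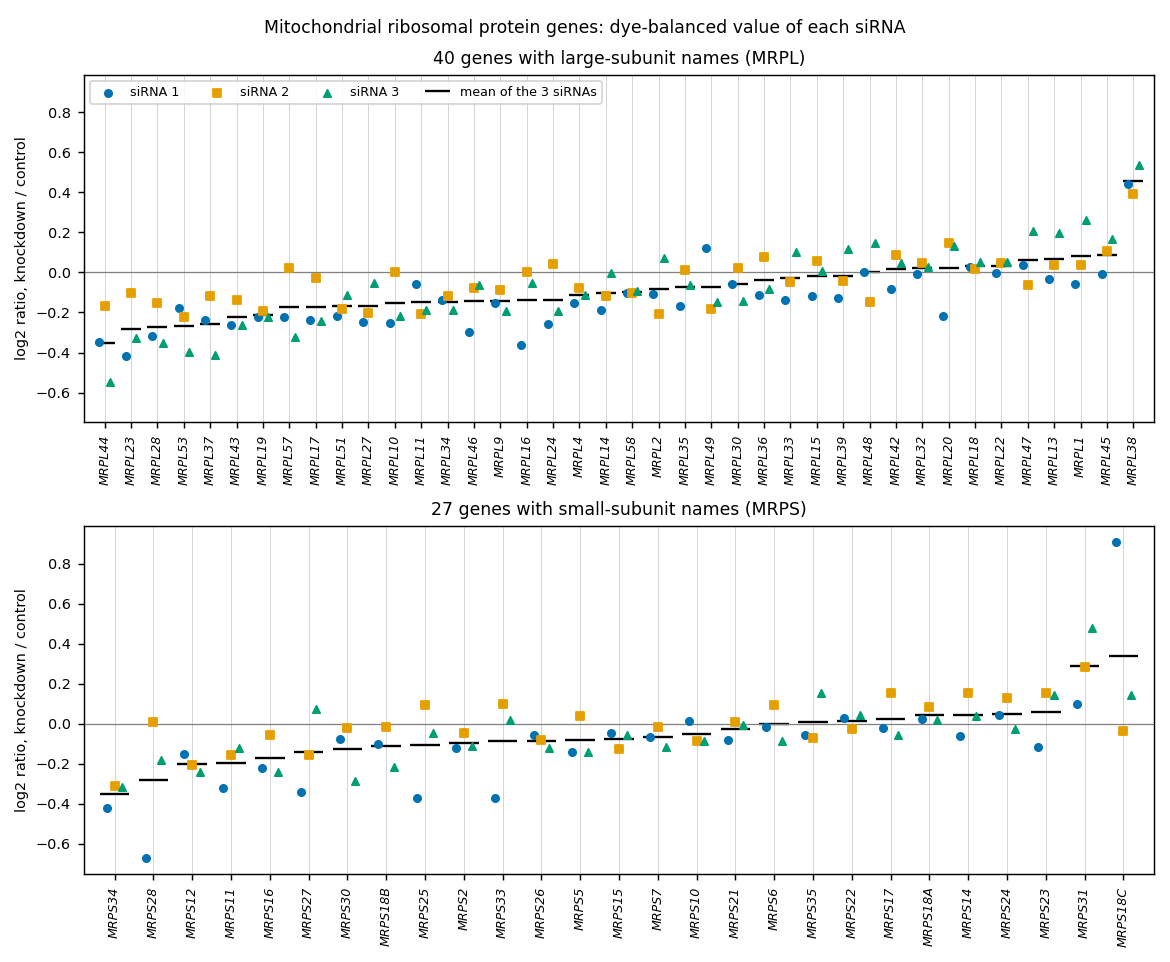
Log2 ratio of knockdown over control for the brightest probe of each of 40 MRPL genes (upper panel) and 27 MRPS genes (lower panel), ordered by the mean over siRNAs. Points are the dye-balanced values of siRNA 1, 2 and 3 and bars their mean; MRPL38 stands apart at the right of the upper panel, and MRPS18C, a dim probe, has widely spread values at the right of the lower panel.

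In the test across siRNAs, which takes 1 dye-balanced value from each siRNA and adjusts over all 28259 probes, 0 of the 67 genes were called by limma at an adjusted p under 0.05. The background for that call was 0.0% higher and 0.00354% lower, the latter being TRMT12 alone. An unadjusted p under 0.05 was reached by 2 genes higher, MRPL38 and MRPS31, and by 10 lower, MRPL19, MRPL23, MRPL28, MRPL37, MRPL43, MRPL44, MRPL53, MRPS11, MRPS12 and MRPS34. These are 2.99% and 14.9% of the genes, against 11.8% and 11.6% of all tested probes and 13.5% in each direction among the brighter probes, so the lower share was near the background and the higher share below it. The lowest adjusted p of the group were 0.0834 for MRPL38 and 0.0908 for MRPS34. The count was 10 (14.9%) when all 9 arrays entered with the siRNA as a random block, where 13.5% of all tested probes were called. It was 1 (1.49%) without array 2 of siRNA 2, where 1.51% of all were called.

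The single-siRNA tests called more genes, most of them lower. With siRNA 1, 1 gene was called higher and 23 lower, 34.3% of the 67, against a background of 11.6% higher and 11.3% lower over all tested probes and 17.7% in each direction among the brighter ones. With siRNA 2 the counts were 2 higher and 6 lower, against 10.5% and 9.74%, and 15.7% and 15.0% among brighter probes. With siRNA 3 they were 4 higher and 15 lower (22.4%), against 9.9% and 10.1%, and 16.8% and 16.9%. The share called lower with siRNA 2, 8.96%, was thus below the background, and the share called higher was below it with each siRNA. The siRNA 1 counts, both directions together, were 14 genes (20.9%, against 13.2% of all probes) without its array 2, and 5 (7.46%, against 8.09%) without its array 3, the dye-swapped array. For siRNA 3 they were 9 genes (13.4%, against 2797 of 27965 probes) without its array 1, 10 (14.9%, against 10.8%) without its array 2, and 7 (10.4%, against 7.97%) without its array 3. For siRNA 2 they were 4, 5 and 1 without its own arrays 1, 2 and 3 (5.97%, 7.46% and 1.49%, against 12.9%, 17.8% and 12.5%). They were 4 without array 1 or 3 of siRNA 1 or any array of siRNA 3 (5.97%, against 15.6% to 18.1%). With median centring of each array the siRNA 2 counts were 1 higher and 0 lower (1.49%, against 7.82% in either direction). With the authors' ratio they were 2 and 0 (2.99%, against 13.2%).

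MRPL38, a protein of the central protuberance of the large subunit, was the member with the largest rise. It had a single member probe, of mean log2 intensity 9.81, beside a median of 12.84 for the brightest member probes. Its log2 ratios were 0.41, 0.50 and 0.43 on arrays 1 to 3 of siRNA 1, 0.37, 0.28 and 0.46 with siRNA 2, and 0.53, 0.58 and 0.52 with siRNA 3. The arrays of both dye orientations gave alike values, with means of 0.45 where the knockdown carried Cy5 and 0.47 on the dye-swapped arrays. Its dye-adjusted estimates were 0.45 (SE 0.0498, adjusted p = 0.00147), 0.37 (SE 0.0498, adjusted p = 0.00368) and 0.55 (SE 0.0498, adjusted p = 0.0013), which are 1.37-fold, 1.29-fold and 1.46-fold higher. Each of these 3 calls held under every alternative run, and the estimates did not differ between siRNAs beyond their error (adjusted p of the differences 0.17 to 0.551). A further probe titled MRPL38 on the array, outside the symbol rule, was not tested. It read 0.08, -0.27 and -0.20 with siRNA 1, and 0.70, 0.28 and -0.15 with siRNA 3. With siRNA 2 it had a ratio on array 3 only, -0.36, so its dye-swapped arrays were all below 0.

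MRPS31, a small-subunit protein found in mitochondria and not in bacteria, had the next highest mean among genes with a call, 0.29 (SE 0.0939). Its log2 ratios were -0.10, -0.14 and 0.31 with siRNA 1, 0.12, 0.04 and 0.49 with siRNA 2, and 0.28, 0.42 and 0.61 with siRNA 3. The dye-swapped array was the highest of each siRNA, and the arrays of siRNA 3 lay above the same-orientation arrays of siRNA 1. The estimates were 0.09 (SE 0.0519, adjusted p = 0.287), 0.28 (adjusted p = 0.0126) and 0.50 (adjusted p = 0.00178), and the dye term was -0.37 (adjusted p = 0.00814). Large-subunit genes called higher with siRNA 3 were MRPL1, the homologue of the bacterial L1 stalk protein, at 0.27 (SE 0.0482, adjusted p = 0.00997), and MRPL13 at 0.21 (SE 0.0595, adjusted p = 0.0499), which is at the threshold. MRPL13 read 0.40, 0.51 and -0.06 with siRNA 3, and its dye-swapped array was below 0 with each siRNA. The MRPL13 dye term was 0.42 (adjusted p = 0.00783), larger than the estimate. A dimmer MRPL1 probe, which had no ratio on array 2 of siRNA 3, was not called with siRNA 3 (-0.04, SE 0.119) and was called lower with siRNA 1 (-0.41, adjusted p = 0.034).

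**Figure D2:**
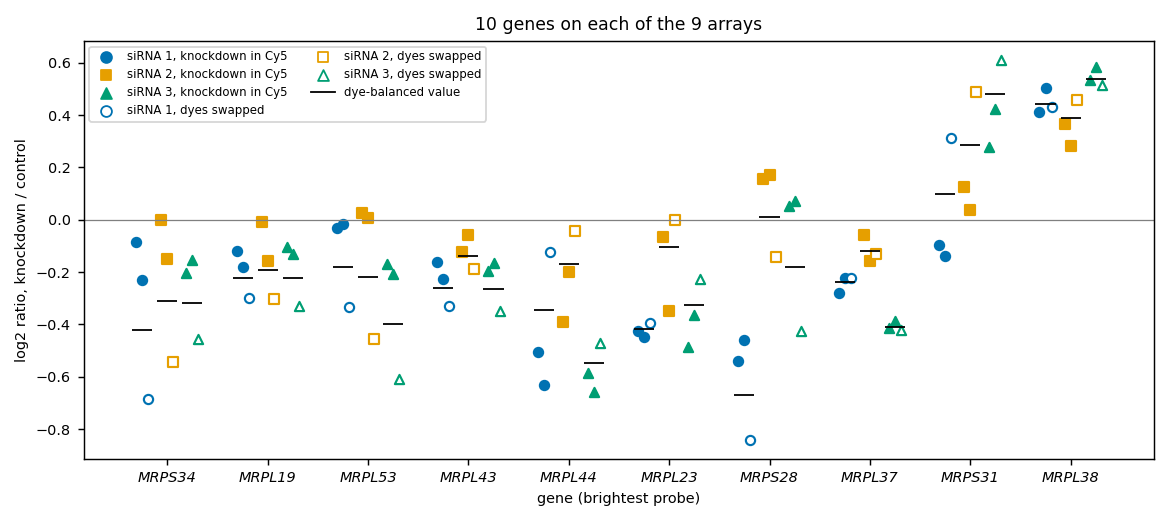
Log2 ratio of knockdown over control of 10 genes on each of the 9 arrays, with filled symbols where the knockdown carried Cy5, open symbols for the dye-swapped arrays and bars for the dye-balanced value of each siRNA. MRPL38 and MRPL37 read alike in both orientations, whereas the open symbols of MRPS34, MRPL53 and MRPS28 lie below and those of MRPS31 above the filled ones.

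MRPS34, a mitochondria-specific small-subunit protein whose loss of function causes Leigh syndrome, had the second lowest mean of the group. Its log2 ratios were -0.08, -0.23 and -0.68 with siRNA 1, 0.00, -0.15 and -0.54 with siRNA 2, and -0.20, -0.15 and -0.46 with siRNA 3. The values ran from 0.00 downwards, and the dye-swapped array was the lowest of each siRNA. The dye-adjusted estimates were -0.40 (SE 0.0608, adjusted p = 0.00452), -0.30 (adjusted p = 0.0166) and -0.34 (adjusted p = 0.00976), or 1.32-fold, 1.23-fold and 1.27-fold lower. The dye term was 0.42 (SE 0.073), about as large as the change itself.

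MRPL53, a mitochondria-specific protein of the large subunit, showed the same dependence on orientation. Its log2 ratios were -0.03, -0.02 and -0.33 with siRNA 1, 0.03, 0.01 and -0.46 with siRNA 2, and -0.17, -0.21 and -0.61 with siRNA 3. With siRNA 1 and 2 the arrays with the knockdown in Cy5 were near 0 and only the dye-swapped array was low. The dye-adjusted estimates were -0.19 (adjusted p = 0.0203), -0.21 (adjusted p = 0.0186) and -0.39 (SE 0.0435, adjusted p = 0.00203). From the Cy5 arrays alone the siRNA 2 value was 0.02, on the other side of 0.

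MRPL19, the homologue of bacterial L19 at the face between the subunits, read -0.12, -0.18 and -0.30 with siRNA 1, -0.01, -0.16 and -0.30 with siRNA 2, and -0.10, -0.13 and -0.33 with siRNA 3. MRPL43, a mitochondria-specific large-subunit protein, read -0.16, -0.23 and -0.33 with siRNA 1, -0.12, -0.06 and -0.19 with siRNA 2, and -0.20, -0.17 and -0.35 with siRNA 3. On these probes both were below 0 on every array and lowest on the dye-swapped array of each siRNA. The estimates for MRPL19 were -0.23, -0.19 and -0.22 (SE 0.0465 each, adjusted p = 0.0136, 0.0319 and 0.0179). Those for MRPL43 were -0.26, -0.15 and -0.26 (SE 0.041 each, adjusted p = 0.00525, 0.0489 and 0.00632). A dimmer MRPL43 probe was called lower with siRNA 1 (-0.58, adjusted p = 0.00545) but not with siRNA 2 or siRNA 3 (-0.02 and 0.08). A brighter probe titled MRPL43, outside the symbol rule, was called lower with siRNA 1 and siRNA 3 (-0.21 and -0.32). It was not called with siRNA 2 (-0.09, adjusted p = 0.287). Its dye-swapped array was the highest of each siRNA (dye term -0.27, adjusted p = 0.0267).

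MRPL44, a protein with a ribonuclease III fold near the exit of the peptide tunnel, mutated in a cardiomyopathy of infancy, had the lowest mean of the group. Its log2 ratios were -0.50, -0.63 and -0.12 with siRNA 1, -0.39, -0.20 and -0.04 with siRNA 2, and -0.59, -0.66 and -0.47 with siRNA 3. All 9 arrays were below 0, and here the dye-swapped array was the least low of each siRNA. The estimates were -0.37 (SE 0.0664, adjusted p = 0.00842), -0.16 (adjusted p = 0.126) and -0.53 (adjusted p = 0.003), the last being 1.44-fold lower, and the calls with siRNA 1 and siRNA 3 held under every alternative. The siRNA 3 minus siRNA 2 difference of -0.36 had an adjusted p of 0.056.

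MRPL23, whose bacterial homologue also lines the tunnel exit, read -0.43, -0.45 and -0.40 with siRNA 1, -0.07, -0.35 and 0.00 with siRNA 2, and -0.48, -0.37 and -0.23 with siRNA 3. MRPL28, a homologue of bacterial L28, read -0.36, -0.39 and -0.26 with siRNA 1, -0.10, -0.26 and -0.13 with siRNA 2, and -0.39, -0.34 and -0.34 with siRNA 3. MRPL37, a mitochondria-specific large-subunit protein, read -0.28, -0.22 and -0.22 with siRNA 1, -0.06, -0.16 and -0.13 with siRNA 2, and -0.41, -0.39 and -0.42 with siRNA 3. All 3 genes were least low with siRNA 2, where none was called, and had dye terms that were not called. The siRNA 1 and siRNA 3 estimates were -0.40 and -0.33 for MRPL23 (adjusted p = 0.00645 and 0.0143), -0.32 and -0.34 for MRPL28 (adjusted p = 0.00413 and 0.00404), and -0.24 and -0.41 for MRPL37 (adjusted p = 0.00781 and 0.00173). For MRPL37 the siRNA 3 value was lower than that of siRNA 2 by a called difference of -0.29 (SE 0.0585, adjusted p = 0.0272).

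A few genes were lowest with siRNA 1. MRPS28, the human homologue of bacterial S1 on the small subunit, read -0.54, -0.46 and -0.84 with siRNA 1, 0.16, 0.17 and -0.14 with siRNA 2, and 0.05, 0.07 and -0.43 with siRNA 3. Within each orientation the arrays of siRNA 1 lay below those of the other siRNAs. The siRNA 1 estimate of -0.68 (SE 0.0469, adjusted p = 0.000376), 1.60-fold lower, was the lowest of any member and held under every alternative, beside 0.00 for siRNA 2 and -0.16 for siRNA 3 (adjusted p = 0.972 and 0.0524). The differences were 0.67 for siRNA 2 minus siRNA 1 (SE 0.065, adjusted p = 0.00866) and 0.51 for siRNA 3 minus siRNA 1 (SE 0.065, adjusted p = 0.00959).

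MRPS33, a small mitochondria-specific protein of the small subunit, read -0.27, -0.43 and -0.39 with siRNA 1, 0.11, 0.04 and 0.12 with siRNA 2, and 0.11, 0.00 and -0.02 with siRNA 3. MRPL20, the homologue of bacterial L20, read -0.15, -0.18 and -0.27 with siRNA 1, 0.19, 0.15 and 0.13 with siRNA 2, and 0.15, 0.07 and 0.16 with siRNA 3. For both, every array of siRNA 1 lay below every array of the other siRNAs, in either orientation. The siRNA 1 estimates were -0.37 for MRPS33 (SE 0.0518, adjusted p = 0.00352) and -0.21 for MRPL20 (SE 0.0451, adjusted p = 0.0187). Their dimmer probes were not called with any siRNA and read -0.22, 0.20 and -0.23 for MRPS33 and -0.05, 0.10 and 0.04 for MRPL20. MRPS27, a pentatricopeptide repeat protein of the small subunit, read -0.70, -0.76 and 0.05 with siRNA 1, -0.30, -0.52 and 0.10 with siRNA 2, and -0.16, -0.22 and 0.34 with siRNA 3, so its low values were confined to the Cy5 arrays. Its siRNA 1 estimate was -0.37 (adjusted p = 0.00809), beside a dye term of -0.60 (SE 0.0785, adjusted p = 0.00361).

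Besides the genes above, 11 were called lower with siRNA 1, namely MRPS25, MRPL16, MRPS11, MRPL46, MRPL24, MRPL27, MRPL10, MRPL17, MRPL51, MRPS16 and MRPL57, with estimates from -0.36 for MRPS25 to -0.21 for MRPL57 (adjusted p = 0.0119 for MRPL57). MRPL27, a homologue of bacterial L27, was called lower with siRNA 2 as well (-0.20, adjusted p = 0.0403). With siRNA 3, 7 further genes were called lower, MRPL57 (-0.32, adjusted p = 0.00331), MRPS30 (-0.29), MRPS16 (-0.26), MRPL17 (-0.23), MRPL10 (-0.22), MRPS18B (-0.22) and MRPL34 (-0.17, adjusted p = 0.0484). MRPL17 and MRPL34 are homologues of bacterial L17 and L34, and MRPS18B is counted here with the mitochondria-specific proteins of the small subunit.

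Over the 67 genes, siRNA 2 minus siRNA 1 was called for 3, all higher: MRPS28, MRPS33 and MRPL20. The background was 0.987% higher and 1.6% lower. For siRNA 3 minus siRNA 1 there were 6, all higher, namely MRPS28, MRPS27, MRPS31, MRPS33, MRPL1 and MRPL20, against 4.27% higher and 4.99% lower. For siRNA 3 minus siRNA 2 there were 2, both lower, MRPL57 and MRPL37, against 5.32% higher and 4.84% lower. MRPL57 is a small mitochondria-specific protein of the large subunit, with estimates of -0.21, 0.02 and -0.32. The counts of differences rested on few arrays, both for these genes and for all tested probes. With median centring they fell to 0 for all 3 comparisons. The shares of all tested probes then fell from 2.59%, 9.26% and 10.2% to 0.0425%, 0.237% and 0.216%. For siRNA 2 minus siRNA 1 the count was 0 without array 2 or 3 of siRNA 1 (0.244% and 0.141% of all probes). It was 2 without array 2 of siRNA 2 (1.46% of all) and 1 without any other array (0.334% to 1.97%). For siRNA 3 minus siRNA 1 it was 0 without array 1 of siRNA 3 (1.13% of all probes). It was 1 without its array 2 or 3 (2.12% and 2.74%) or array 2 or 3 of siRNA 1 (1.97% and 1.75%). It was 2 without array 1 of siRNA 1 (3.62%), and 4, 6 and 8 without arrays 3, 1 and 2 of siRNA 2 (6.03%, 8.36% and 13.4%). For siRNA 3 minus siRNA 2 it was 0 without array 1, 2 or 3 of siRNA 3 (1.99%, 2.65% and 4.63% of all probes). It was also 0 without array 1 or 3 of siRNA 2 (5.1% and 8.29%). It was 1 without array 2 or 3 of siRNA 1 (6.71% and 6.42%), and 2 otherwise (7.58% and 8.74%).

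Some further members are known for their role in the ribosome. In the stalk region that binds translation factors, MRPL10 was called lower with siRNA 1 (-0.25, SE 0.044, adjusted p = 0.00818) and siRNA 3 (-0.22, adjusted p = 0.0149), and MRPL11 with siRNA 2 (-0.22, SE 0.0592, adjusted p = 0.0413). MRPL11 read 0.13, 0.12 and -0.24 with siRNA 1, 0.05, -0.19 and -0.35 with siRNA 2, and 0.07, 0.01 and -0.41 with siRNA 3, below 0 on each dye-swapped array. Near the tunnel exit, MRPL39 and MRPL45 were not called with any siRNA and had means of -0.02 (SE 0.0781) and 0.09 (SE 0.0709). MRPS12, the homologue of the bacterial S12 protein of the decoding centre, had a mean of -0.20 (SE 0.0653) and siRNA values between -0.26 and -0.13 that were not called. A dimmer MRPS12 probe was called lower with siRNA 3 (-0.23, adjusted p = 0.0276).

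Among small-subunit genes mutated in inherited disorders of oxidative phosphorylation, MRPS16 was called lower with siRNA 1 (-0.22, adjusted p = 0.0365) and siRNA 3 (-0.26, adjusted p = 0.0211). MRPS22, MRPS7 and MRPS2 were not called with any siRNA, with means of 0.02 (SE 0.0645), -0.07 (SE 0.0658) and -0.09 (SE 0.0649). MRPL42 had a mean of 0.02 (SE 0.0708) and was not called. MRPS30 and MRPS18A carry small-subunit names, but their proteins sit in the large subunit. MRPS30 was called lower with siRNA 3 (-0.29, SE 0.0473, adjusted p = 0.00692), and MRPS18A had a mean of 0.04 (SE 0.0644) with no call.

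The median of the MRPL genes lay 0.02 below that of the MRPS genes over the 3 siRNAs, and on single arrays the gap ran from -0.12 on array 3 of siRNA 2 to 0.08 on array 2 of siRNA 3, being below 0 on 5 of the 9 arrays. With siRNA 1, 1 of 40 MRPL genes was called higher and 16 lower, beside 0 and 7 of 27 MRPS genes. With siRNA 2 the counts were 1 and 5 for MRPL and 1 and 1 for MRPS. With siRNA 3 they were 3 and 11 for MRPL and 1 and 4 for MRPS. The share called lower was higher among MRPL genes with each siRNA, 27.5% beside 14.8% with siRNA 3 for example. This is a description, since the arrays are common to both groups and the difference was not tested.

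Split by ancestry, the 26 MRPL genes with a bacterial homologue had dye-balanced medians of -0.14, -0.01 and -0.06 with siRNA 1, 2 and 3, and the 14 mitochondria-specific MRPL genes -0.15, -0.11 and -0.10. The 15 MRPS genes with a bacterial homologue had medians of -0.07, -0.01 and -0.09, and the 10 mitochondria-specific ones -0.11, -0.02 and 0.03. The 14 mitochondria-specific MRPL genes held 7 of the calls lower with siRNA 1, 2 with siRNA 2 and 5 with siRNA 3, and they also held MRPL38. Counting MRPS30 and MRPS18A with the large subunit left both subunit medians at -0.10 and -0.08.

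**Figure D3:**
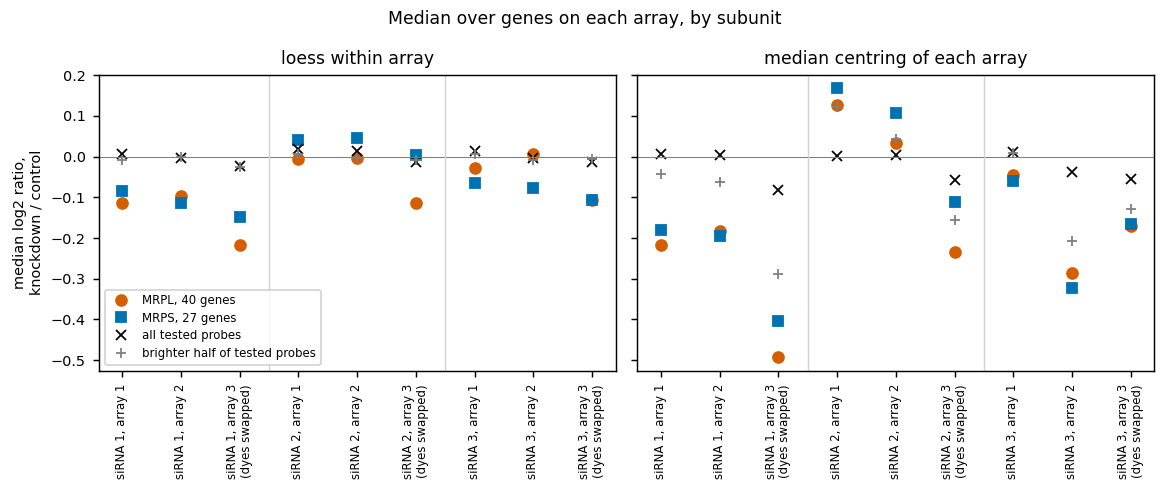
Median log2 ratio of knockdown over control on each array for the 40 MRPL and 27 MRPS genes, beside the median of all tested probes and of the brighter probes, after loess within each array (left) or median centring (right). After loess the subunit medians lie between -0.22 and 0.05; after median centring they run from -0.49 to 0.17, and the brighter probes move in the same direction on most arrays.

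The size of the group's shift depended on how arrays were scaled. With median centring in place of loess, the median over siRNAs was -0.20 for MRPL and -0.17 for MRPS genes, and with the authors' ratio -0.18 and -0.14. The brighter probes as a whole then lay off 0 too. With siRNA 1 the median of the 67 members was -0.31 after median centring, beside -0.18 for the brighter probes, whereas after loess it was -0.12 beside -0.01. With siRNA 2 the values were -0.04 beside -0.02 after median centring and -0.03 beside 0.01 after loess. With siRNA 3 they were -0.18 beside -0.10 and -0.06 beside 0.01. The dye-balanced medians of the members thus lay below those of the brighter probes under both scalings with every siRNA, by 0.02 at the least. With siRNA 2 this rested mostly on array 3, the dye-swapped array. On its arrays 1 and 2 the members read 0.006 and 0.017 beside 0.007 and -0.003 after loess. After median centring they read 0.14 and 0.05 beside 0.12 and 0.04. The MRPS median alone was -0.01 with siRNA 2 after median centring, above that of the brighter probes.

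Dye orientation was a source of variation in these genes, as it was over all tested probes. The dye term is the log2 ratio with the knockdown in Cy5 minus that in Cy3. It was called for 24 of the 67 genes (35.8%), against 29.2% of all tested probes. The calls were 18 higher (26.9%) and 6 lower (8.96%). The background was 14.5% higher and 14.7% lower over all tested probes, and 18.3% and 18.0% among the brighter ones. Both directions together were thus near the background, with the higher share above it and the lower share below it. The split was 12 and 2 for MRPL and 6 and 4 for MRPS genes. The highest terms were 0.46 for MRPS7 (SE 0.054, adjusted p = 0.00286), 0.43 for MRPL33 and MRPL47, 0.42 for MRPL13 and 0.42 for MRPS34. The lowest called were -0.60 for MRPS27, -0.51 for MRPS24, -0.47 for MRPS35, -0.37 for MRPS31 and -0.33 for MRPL2. MRPS7, the homologue of a bacterial head protein, shows the pattern, reading 0.18, 0.10 and -0.27 with siRNA 1, 0.20, 0.24 and -0.25 with siRNA 2, and 0.18, 0.07 and -0.36 with siRNA 3, with its sign set by the dye on all 9 arrays and its mean over siRNAs near 0.

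The count of dye terms called was 7 with median centring, 11 with the authors' ratio, and 7 without array 3 of siRNA 1 or of siRNA 2. It was 9 without array 3 of siRNA 3, and 14, 15 and 13 without array 1 of siRNA 1, array 2 of siRNA 1 and array 1 of siRNA 3. Over the 67 genes, the 3 pairs of arrays of the same siRNA and the same orientation had Pearson correlations of 0.35 to 0.85, and the 6 pairs of opposite orientation -0.23 to 0.45. Over all tested probes those ranges were 0.41 to 0.69 and 0.04 to 0.20. The points of each correlation are genes measured on the same arrays and share the label and spot intensity. Medians over genes of the mean over arrays were -0.06 for MRPL and -0.07 for MRPS with the knockdown in Cy5, and -0.15 and -0.10 on the dye-swapped arrays.

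**Figure D4:**
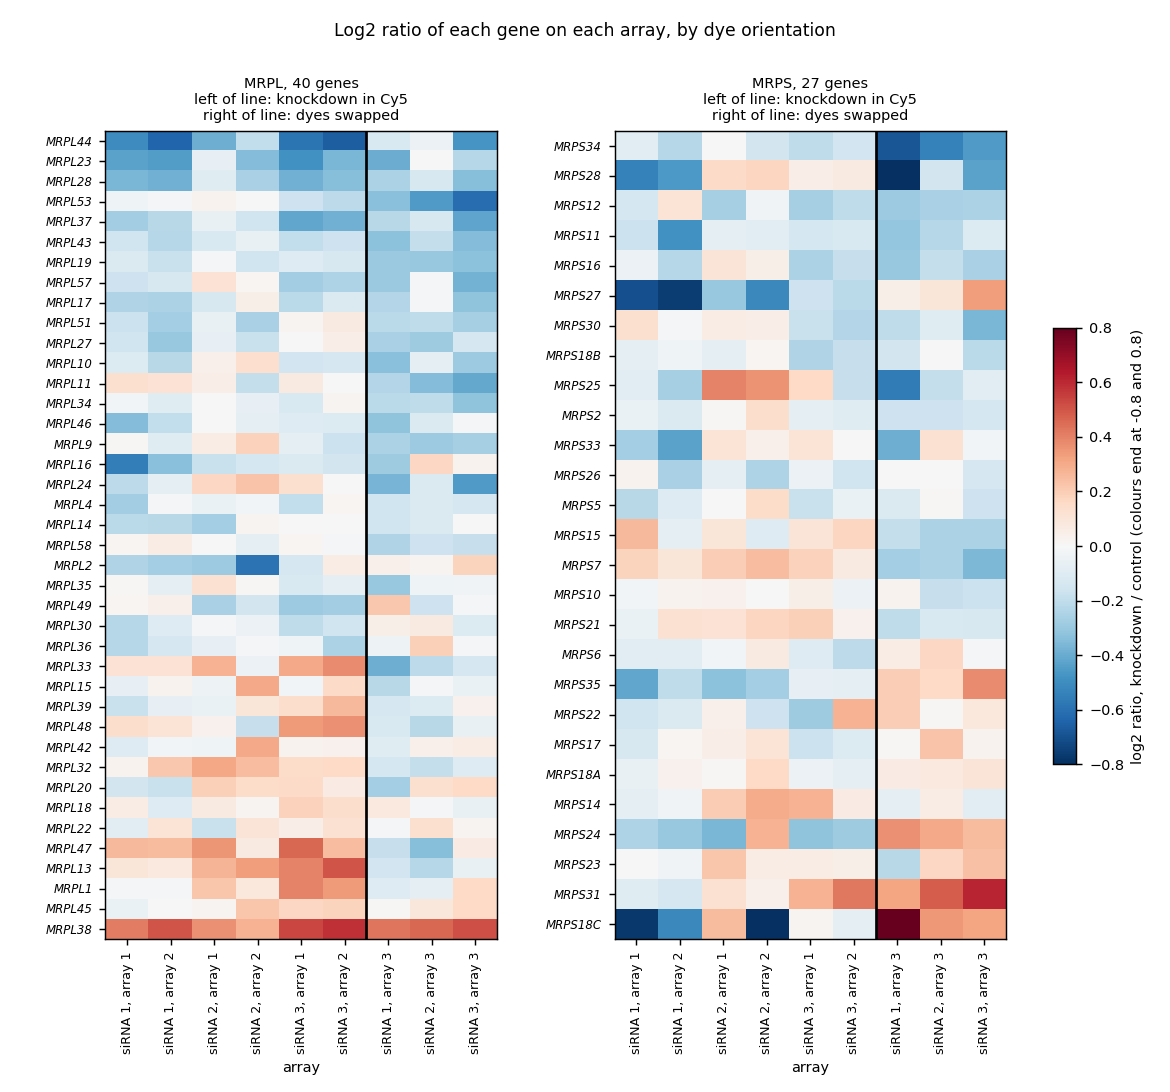
Log2 ratio of knockdown over control of 40 MRPL genes (left) and 27 MRPS genes (right) on each array, with the 6 arrays with the knockdown in Cy5 to the left of the black line and the 3 dye-swapped arrays to its right. Colour runs from -0.8 (blue) to 0.8 (red); genes such as MRPS7 and MRPS35 change colour at the line, whereas MRPL38 is red and MRPL37 blue on both sides.

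Probes of the same gene did not always read alike. More than 1 probe was tested for 18 genes. In 9 of them the means over siRNAs differed in sign between probes, in 1 there were opposite calls with an siRNA, and in 2 opposite calls of the dye term. MRPS11, a platform protein of the small subunit, had 4 bright probes with means of -0.20, -0.24, -0.23 and -0.21. All 4 were called lower with siRNA 1 (-0.33, -0.37, -0.37 and -0.32). A dim probe had a mean of 0.07. A further tested probe titled MRPS11, outside the symbol rule, lay between these in intensity and had a mean of 0.02. It was not called with siRNA 1, 2 or 3 (0.12, 0.02 and -0.10). Its dye term was 0.61 (adjusted p = 0.00243), larger than these estimates. MRPL30, a homologue of bacterial L30, had 4 probes with means of -0.06, -0.22, 0.19 and 0.22. With siRNA 1 the brightest was not called (-0.07), the next was called lower (-0.26, adjusted p = 0.0146) and the dimmer pair higher (0.33 and 0.17, adjusted p = 0.0126 and 0.0307). No direction is therefore given for MRPL30.

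The dimmer MRPL47 probe, for a protein at the tunnel exit, read -0.20, -0.27 and 0.15 with siRNA 1, -0.48, -0.45 and -0.12 with siRNA 2, and 0.15, 0.20 and 0.53 with siRNA 3. It was called lower with siRNA 2 (-0.29, adjusted p = 0.00445) and higher with siRNA 3 (0.35, adjusted p = 0.00228), whereas the brightest probe was called with neither (-0.04 and 0.19). MRPS18C, measured by a single dim probe, read -0.77, -0.52 and 2.46 with siRNA 1, 0.25, -1.08 and 0.35 with siRNA 2, and 0.02, -0.07 and 0.32 with siRNA 3. Its mean of 0.34 (SE 0.193) was not called and rested on array 3 of siRNA 1. The role members MRPL12 and MRPS36 had no probe under those symbols here, and MRPL3 was named only through its transcript accession.

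Other genes of mitochondrial translation were counted in the same way. Medians of the mean over siRNAs were -0.04 for the subunits with other symbols, -0.07 for the assembly factors and 0.03 for the translation factors, beside -0.08 for the 67 members. Of 5 ribosomal subunits with other symbols (DAP3, AURKAIP1, CHCHD1, GADD45GIP1 and PTCD3), 0 were called higher and 1 lower with siRNA 1, 0 and 1 with siRNA 2, and 1 and 1 with siRNA 3. Of 19 tested assembly factors of the ribosome, 1 was called higher and 7 lower with siRNA 1, 1 and 1 with siRNA 2, and 1 and 4 with siRNA 3. GTPBP10, a GTPase of large-subunit assembly, was higher with each siRNA (0.32, 0.41 and 0.46, SE 0.042 each), and MRM2, MRM1 and MRM3, which methylate the large ribosomal RNA, were called lower with siRNA 1 (-0.28, -0.34 and -0.25). Of 13 tested translation factors, 1 was called in each direction with siRNA 1, 1 higher and 0 lower with siRNA 2, and 3 higher and 2 lower with siRNA 3. Over all tested probes, 11.6%, 10.5% and 9.9% were called higher and 11.3%, 9.74% and 10.1% lower with siRNA 1, 2 and 3. The shares called lower were 36.8%, 5.26% and 21.1% for the assembly factors. They were 7.69%, 0.0% and 15.4% for the translation factors, and 20.0% with each siRNA for the 5 other subunits.

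LRPPRC, which stabilises mitochondrial messengers, and MTIF2, an initiation factor, had siRNA 3 estimates of 0.41 and 0.41 beside 0.02 and -0.01 with siRNA 1. Subunits that lie outside the symbol rule because only a transcript accession named their probes were MRPL3 at a mean of -0.02 (SE 0.0657), MRPL41 at -0.29 (SE 0.0642) and MRPL50 at 0.91 (SE 0.0885). These are not members and are named as all subunits of that kind found. MRPL50, a mitochondria-specific large-subunit protein, read 0.49, 0.64 and 0.91 with siRNA 1, 0.88, 0.62 and 1.06 with siRNA 2, and 0.97, 0.91 and 1.22 with siRNA 3, all above 0 and higher than any array of MRPL38 on 8 of 9. It was called higher with siRNA 1, 2 and 3 (0.73, 0.91 and 1.08), and MRPL41 was called lower with each (-0.31, -0.26 and -0.29, adjusted p = 0.00283, 0.00735 and 0.00423); neither was called across siRNAs. Cytosolic ribosomal proteins, the other ribosome of the cell, had medians of 0.02, 0.07 and 0.09 with siRNA 1, 2 and 3 over 55 genes. Their dye term was called higher for 4 and lower for 42 (7.27% and 76.4%, against 14.5% and 14.7% of all tested probes).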

How the data were processed

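The authors deposited, per the file headers, the mean intensity of each spot in both channels above local background, a calibrated ratio (knockdown over control intensity divided by 1 factor an array), a spot quality as a fraction from 0 to 1, and the spot area. Their further deposited table held log2 ratios equal to log2 of the calibrated ratio within 0.001, with the sign turned on the 3 dye-swapped arrays. The series text states that those arrays were already exchanged, and no sign was turned here, so every ratio is knockdown over control. The image program and genome build are not given in the sources used here.

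Ratios were formed where a spot was found and both channels exceeded a floor of 1, and were normalised within each array by loess (limma 3.58.1, R 4.3.3, blank spots at weight 0) with no further background correction, since the intensities were already background-subtracted. Detection required, on 6 or more arrays, a signal above 2 SDs of the background in either channel. A probe was tested when it also had a ratio in both orientations of every siRNA (28259 probes). Across siRNAs, 3 dye-balanced values were tested against 0. Single siRNAs, differences and the dye term came from a limma fit of 9 arrays, all with Benjamini-Hochberg adjustment over all tested probes and a threshold of 0.05. The number of arrays limits the precision, and a ratio tested against 0 leaves out the control's own spread.

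Probes were named by the platform annotation updated to current symbols. The members, the gene lists and the naming rule were chosen with earlier results of these data known. The rule names up to 5 highest and 5 lowest called members of each comparison, the 5 extremes of each subunit, members known for a role, genes with disagreeing probes and members not tested. Genes with a bacterial homologue and mitochondria-specific genes were listed by hand. Estimates were tested on simulated data. Alternatives were another scaling, background correction, filter, spot quality, orientation, dye term and array set.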

Additional observations from a re-analysis of the deposited data

Results flagged for a closer look

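Differences between siRNAs passed the adjusted threshold for 19 values over all member probes, each from the limma fit of 9 arrays and each resting on the spread between hybridisations. Values are differences of log2 ratios. For siRNA 2 minus siRNA 1, 3.3% of the 91 member probes were called higher and 0.0% lower. The background was 0.987% and 1.6% of all tested probes. For siRNA 3 minus siRNA 1 the shares were 8.79% and 0.0%, against 4.27% and 4.99%. For siRNA 3 minus siRNA 2 they were 1.1% and 7.69%, against 5.32% and 4.84%. Both directions together, 2.59%, 9.26% and 10.2% of all tested probes were called.

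Higher with siRNA 2 than with siRNA 1 were MRPS28 by 0.67 (SE 0.065, adjusted p = 0.00866), MRPS33 by 0.45 (SE 0.0718, adjusted p = 0.034) and MRPL20 by 0.35 (SE 0.0625, adjusted p = 0.0411), all on the brightest probe. Higher with siRNA 3 than with siRNA 1 on the brightest probe were MRPS28 by 0.51 (SE 0.065, adjusted p = 0.00959), MRPS27 by 0.46 (SE 0.0906), MRPS31 by 0.41 (SE 0.072), MRPS33 by 0.39 (SE 0.0718), MRPL1 by 0.34 (SE 0.0668) and MRPL20 by 0.33 (SE 0.0625), with adjusted p of 0.0285, 0.0205, 0.0225, 0.0276 and 0.026 for the last 5. Dimmer probes of MRPL43 and MRPL47 were higher with siRNA 3 than with siRNA 1 by 0.67 (SE 0.128, adjusted p = 0.0261) and 0.40 (SE 0.0563, adjusted p = 0.0116).

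Lower with siRNA 3 than with siRNA 2 on the brightest probe were MRPL57, by -0.34 (SE 0.0577, adjusted p = 0.0173), and MRPL37, by -0.29 (SE 0.0585, adjusted p = 0.0272). On dimmer probes they were MRPS6 at -0.52 (SE 0.0841, adjusted p = 0.015), MRPL35 at -0.44 (SE 0.0972, adjusted p = 0.0362), MRPS33 at -0.43 (SE 0.102, adjusted p = 0.045), MRPS21 at -0.42 (SE 0.0646, adjusted p = 0.0136) and MRPS12 at -0.35 (SE 0.0772, adjusted p = 0.0381). The dimmer MRPL47 probe was higher with siRNA 3 than with siRNA 2 by 0.64 (SE 0.0563, adjusted p = 0.00445). The brightest probes of MRPL43, MRPL47, MRPS6, MRPL35, MRPS21 and MRPS12 were not called in these differences.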

How the results depend on the processing

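The 42 member results named by the rule had 684 values under the alternatives: 487 kept their direction and call, 196 kept the direction and lost the call, and 1 changed sign, MRPL53 with siRNA 2 from the Cy5 arrays alone (0.0155). Of the 487, 42 came from leaving out the detection filter. That left the same 28259 tested probes, so those 42 values could not differ. Called under every alternative were 8 results. Genes called across siRNAs numbered 1 with normexp, 2 with signal in both channels on all arrays, 2 without low-quality spots, 10 with the siRNA as a random block, and 0 to 1 without single arrays. All tested probes were then called at 2.21%, 7.43%, 7.28% and 13.5%, beside 1.49%, 2.99%, 3.03% and 14.9% of the members. With siRNA 1, 24 genes became 8 from the Cy5 arrays alone (11.9%, against 18.1% of all probes), 11 without the dye term, and 5 to 26 without single arrays. With siRNA 2, 8 genes became 1 with median centring (1.49%, against 7.82% of all probes) and 2 with the authors' ratio (2.99%, against 13.2%). They became 13 with signal in both channels (19.4%, against 31.8%) and 15 without low-quality spots (22.7%, against 35.0%). They became 1 without the dye term (1.49%, against 9.06%) and 1 to 6 without single arrays (1.49% to 8.96%, against 12.5% to 18.1%). With siRNA 3, 19 genes became 11 from the Cy5 arrays alone (16.4%, against 15.3% of all probes) and 6 without the dye term (8.96%, against 9.4%). They became 7 to 25 without single arrays (10.4% to 37.3%, against 7.97% to 25.7%). For siRNA 2 minus siRNA 1, siRNA 3 minus siRNA 1 and siRNA 3 minus siRNA 2, counts of 3, 6 and 2 became 0, 0 and 0 with median centring or the Cy5 arrays alone, 1, 2 and 1 with the authors' ratio, 5, 10 and 6 with signal in both channels, and 8, 12 and 7 without low-quality spots. The siRNA 3 minus siRNA 2 count was 5 with normexp (7.46%, against 11.0% of all probes). For the 3 differences the shares of all tested probes were 0.0425%, 0.237% and 0.216% with median centring. They were 0.0566%, 0.0% and 0.0919% from the Cy5 arrays alone, and 0.364%, 2.38% and 3.46% with the authors' ratio. They were 7.79%, 17.6% and 19.0% with signal in both channels, and 9.85%, 21.2% and 21.6% without low-quality spots. Without single arrays the counts of genes lay between 0 and 2, 0 and 8, and 0 and 2. Dye terms called, 24, became 7 with median centring (10.4%, against 17.6% of all probes) and 11 with the authors' ratio (16.4%, against 19.1%). They numbered 7 to 25 without single arrays (10.4% to 37.3%, against 11.6% to 35.3% of all probes). The MRPL and MRPS medians were -0.20 and -0.17 with median centring, and -0.18 and -0.14 with the authors' ratio. Counting genes whose tested probes all carry the call, an alternative chosen after seeing the data, gave 21, 7 and 16 with siRNA 1, 2 and 3. The causes were not tested. No paired analysis was possible because the labels give the arrays no replicate numbers, and array numbers here are accession order and pair nothing.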
